A study of Mus musculus with 15 samples.

Results

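The 10 genes described here are the inhibitors of cyclin-dependent kinases and 3 genes of the p53 stress response, Cdkn1a, Cdkn1b, Cdkn1c, Cdkn2a, Cdkn2b, Cdkn2c, Cdkn2d, Gadd45a, Mdm2 and Trp53. They were chosen by name, as genes of cell-cycle arrest and senescence, from the 39179 genes counted in quadriceps muscle. RNA came from 15 C57BL/6 mice in 4 groups, of which the younger, 3 mo old, held 4 wild-type and 4 V338Y animals and the older, 19 mo old, 3 wild-type and 4 V338Y animals. V338Y mice carried the V338Y substitution of Mrps5, a protein of the small subunit of the mitochondrial ribosome, in both copies of the gene, and the substitution makes mitochondrial translation less accurate. The change is in the germline, so every tissue carried it, and wild-type mice had neither copy changed. Mice are named below by the numbers in their labels, which were 1 to 4 at 3 mo, 2, 4 and 5 in 19 mo wild-type and 2 to 5 in 19 mo V338Y.

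Cyclin-dependent kinases drive cells from rest into DNA replication and division, and 2 protein families hold them back. The Cip/Kip proteins p21 (Cdkn1a), p27 (Cdkn1b) and p57 (Cdkn1c) bind many cyclin and kinase pairs, whereas the INK4 proteins p16 and p15 (Cdkn2a and Cdkn2b), p18 (Cdkn2c) and p19 (Cdkn2d) bind only the kinases that pair with D-type cyclins. The transcription factor p53 (Trp53) turns on Cdkn1a, Gadd45a and Mdm2 after DNA damage and other stress, and the Mdm2 protein in turn marks p53 for destruction. Muscle fibres are post-mitotic cells, and p21 and p57 are known for the cell-cycle exit that precedes fibre formation. In muscle that is denervated, fasted or immobilised, Cdkn1a and Gadd45a are known as induced genes of atrophy.

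Several facts of the whole series bear on the comparisons of age. Between 8250653 and 18968132 counts per mouse were assigned to genes, and the 10 muscle fibre markers summed to between 168050 and 324102 CPM in every library (read counts scaled for library size with TMM normalisation). Although the study's methods describe the animals as female for 3 of the groups and give no sex for 19 mo V338Y, Ddx3y of the Y chromosome was abundant in every 3 mo mouse (162.9 to 202 CPM) and nearly undetected in every 19 mo mouse (0.0826 CPM or less). Conversely, Xist was abundant at 19 mo (506 to 631 CPM) and nearly undetected at 3 mo (0.574 CPM or less). Age and sex therefore cannot be told apart in any comparison of 19 mo with 3 mo below. All 10 listed genes of the circadian clock were also called between the ages in both genotypes. The shares called over all tested genes were 36.2% in wild-type and 46.9% in V338Y mice. In V338Y mice, fits that left out 1 mouse called 2 to 4 of the clock genes higher and 6 lower. Without mouse 5 at 19 mo 9 were called, and Per1 was lost (edgeR adjusted p = 0.0939). Dbp, a listed clock gene, stood at 57.4 to 77.6 CPM in 3 mo and 4.37 to 9.999 CPM in 19 mo mice. The part of the clock in the other age differences was not tested. The genotype labels were matched by Eif3j2, which lay at 0.0911 to 0.597 CPM in wild-type and 18.1 to 33.4 CPM in V338Y mice. A library that stood apart was V338Y mouse 5 at 19 mo. Its 5 neutrophil markers summed to 544 CPM against 2.07 to 4.30 CPM in 19 mo wild-type mice. Values without this mouse are given for the called age differences of the 10 genes in V338Y mice and for the list counts that it changed. V338Y mouse 1 at 3 mo was also apart in some list genes. Its Spp1 stood at 9.36 CPM against 0.921 to 1.16 CPM in the others of its group. In whole muscle, fewer cells of a type and less RNA per cell cannot be told apart.

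Trp53 transcripts rose with age in both genotypes. The gene lies on chr11:69580359-69591873 (GRCm38, plus strand) and was counted at 3.64, 3.90, 4.71 and 4.17 CPM in 3 mo wild-type mice 1 to 4, and at 8.20, 9.02 and 8.68 CPM in 19 mo wild-type mice 2, 4 and 5. In V338Y mice the levels were 4.77, 5.05, 3.72 and 5.64 CPM at 3 mo and 9.71, 9.18, 9.33 and 9.18 CPM at 19 mo. Every 19 mo mouse lay above every 3 mo mouse of either genotype, and the spread among the 4 old V338Y mice was narrow. The rise with age was 1.07 ± 0.14 (SE) on the log2 scale in wild-type mice, or 2.10-fold (edgeR adjusted p = 8.13e-04), and 0.98 ± 0.14 in V338Y mice, or 1.97-fold (edgeR adjusted p = 6.12e-04). With V338Y mouse 5 left out the latter was 1.003 (edgeR adjusted p = 8.94e-04). The processed pseudogene Trp53-ps, a near copy that could take reads from Trp53, had 0 counts in all mice.

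Mdm2, the ubiquitin ligase that limits p53, rose less. It lies on chr10:117688875-117710758 (minus strand) and stood at 43.1, 39.2, 46.3 and 39.9 CPM in 3 mo wild-type and at 52.2, 54.3 and 53.5 CPM in 19 mo wild-type mice. V338Y mice had 45.2, 38.8, 34.1 and 41.5 CPM at 3 mo and 43.9, 46.3, 54.96 and 59.9 CPM at 19 mo. The wild-type ages did not overlap, whereas V338Y mouse 2 at 19 mo fell below V338Y mouse 1 at 3 mo. The log2 rise was 0.34 ± 0.09 in wild-type (edgeR adjusted p = 0.0166) and 0.38 ± 0.13 in V338Y mice (edgeR adjusted p = 0.0339). Both calls were close to the threshold. In wild-type mice the call was lost without 19 mo mouse 4 (edgeR adjusted p = 0.0684), and in V338Y mice it was lost without mouse 5 at 19 mo (log2 rise of 0.30, edgeR adjusted p = 0.0666) in 4 other fits that each left out 1 mouse, and with no filter on low counts (edgeR adjusted p = 0.0563).

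Cdkn1a had the largest rise of the 10 genes. The gene, on chr17:29090976-29100727 (plus strand), was counted at 10.1, 15.5, 11.7 and 5.16 CPM in 3 mo wild-type and at 20.7, 26.8 and 42.4 CPM in 19 mo wild-type mice. In V338Y mice it had 7.23, 7.05, 6.86 and 3.68 CPM at 3 mo and 18.9, 14.0, 29.1 and 48.5 CPM at 19 mo. Within each genotype no 19 mo mouse lay at or below a 3 mo mouse. The rise was 1.48 ± 0.33 on the log2 scale in wild-type mice, or 2.79-fold (edgeR adjusted p = 0.00857), and 2.15 ± 0.38 in V338Y mice, or 4.44-fold (edgeR adjusted p = 0.00159). Without V338Y mouse 5 at 19 mo, the highest of all, the rise in V338Y mice was 1.73 (edgeR adjusted p = 8.46e-04).

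Gadd45a, which encodes a small nuclear protein of growth arrest and DNA repair, rose as well, with 1 exception among the old mice. It lies on chr6:67035096-67037457 (minus strand), where 337 bases of its exons are shared with E230016M11Rik on the opposite strand, a gene of only 9 to 29 counts per mouse. Its levels were 14.4, 14.96, 16.7 and 18.6 CPM in 3 mo wild-type and 34.2, 26.7 and 32.1 CPM in 19 mo wild-type mice, so that every old mouse was above every young one. In V338Y mice they were 18.9, 14.8, 19.6 and 11.5 CPM at 3 mo and 36.8, 15.3, 47.9 and 75.02 CPM at 19 mo. Old V338Y mouse 3 thus stayed within the 3 mo range, and mouse 5 had the highest level of all. The log2 rise was 0.94 ± 0.12 in wild-type (edgeR adjusted p = 7.76e-04) and 1.44 ± 0.40 in V338Y mice (edgeR adjusted p = 0.0148), and the latter was 1.05 without mouse 5 (edgeR adjusted p = 0.0250).

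**Figure D1:**
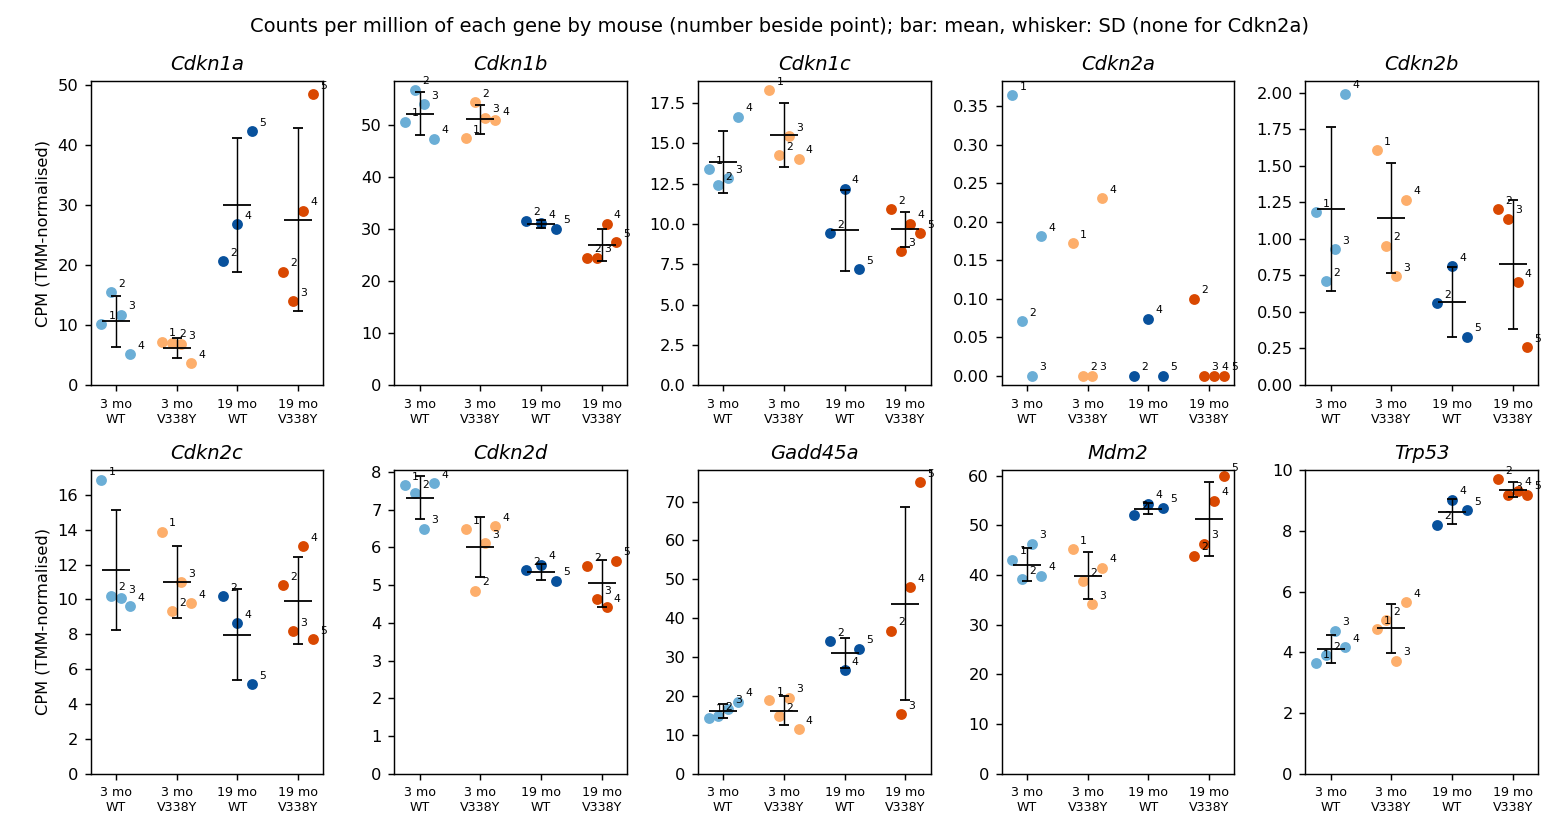
Level of each of the 10 genes in every mouse. Each panel shows 1 gene, with the 4 groups on the x axis and CPM after TMM normalisation on the y axis, which starts at 0 or, for Cdkn2a, just below it. Points are mice with their number beside them, horizontal bars are group means and whiskers the SD over mice, left out for Cdkn2a. Trp53 lay at 3.64 to 5.64 CPM in 3 mo and 8.20 to 9.71 CPM in 19 mo mice, and Cdkn1b at 47.4 to 56.9 and 24.5 to 31.6 CPM.

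The start-site windows of these 4 rising genes are shown with their matches to the p53 half-site. That of Cdkn1b is shown because it was the decrease with the smallest adjusted p among the 10 genes in both genotypes. Sequence further from the starts, where p53 may also bind, was not searched. Windows run from 250 bases before to 50 bases after the start in the RefSeq annotation of GRCm38.p6, which had 12 windows for 9 of the 10 genes, Cdkn1c not among them. Both strands were searched for the p53 half-site consensus, the E-box CACGTG, the GC box motif GGGCGG, the box named for its letters CCAAT, the TATA box as TATAAA, the FoxO site GTAAACA and the E2F sites TTTGGCGC and TTTCCCGC. Matches are in capitals and may overlap. The first Cdkn1a window belongs to the upstream of its 2 annotated starts.
Cdkn1a (chr17:29090729-29091028, plus strand): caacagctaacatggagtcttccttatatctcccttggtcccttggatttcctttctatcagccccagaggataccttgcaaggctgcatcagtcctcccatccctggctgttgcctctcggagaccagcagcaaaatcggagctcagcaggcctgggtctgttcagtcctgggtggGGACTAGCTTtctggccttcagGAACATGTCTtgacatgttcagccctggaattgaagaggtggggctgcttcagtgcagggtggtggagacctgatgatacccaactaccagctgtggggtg
Gadd45a (chr6:67037358-67037657, minus strand): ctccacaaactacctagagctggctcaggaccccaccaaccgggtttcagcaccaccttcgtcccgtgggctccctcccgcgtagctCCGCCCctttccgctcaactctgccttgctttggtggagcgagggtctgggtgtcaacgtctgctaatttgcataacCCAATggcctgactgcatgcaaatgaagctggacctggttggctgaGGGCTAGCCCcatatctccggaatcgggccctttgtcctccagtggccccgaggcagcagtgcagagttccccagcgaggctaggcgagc
Mdm2 (chr10:117710709-117711008, minus strand): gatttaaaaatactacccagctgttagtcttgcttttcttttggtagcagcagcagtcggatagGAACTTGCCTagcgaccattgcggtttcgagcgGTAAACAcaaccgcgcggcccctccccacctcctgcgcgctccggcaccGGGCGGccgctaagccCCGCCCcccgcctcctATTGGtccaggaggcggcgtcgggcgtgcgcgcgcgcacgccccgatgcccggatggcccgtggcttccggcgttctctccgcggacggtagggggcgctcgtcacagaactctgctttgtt
Trp53 (chr11:69580109-69580408, plus strand): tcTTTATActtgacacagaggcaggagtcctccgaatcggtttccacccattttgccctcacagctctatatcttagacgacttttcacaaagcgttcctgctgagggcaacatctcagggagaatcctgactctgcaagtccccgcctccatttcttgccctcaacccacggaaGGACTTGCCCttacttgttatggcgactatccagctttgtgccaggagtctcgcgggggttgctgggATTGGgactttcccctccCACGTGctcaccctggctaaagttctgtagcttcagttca
Cdkn1b (chr6:134920151-134920450, plus strand): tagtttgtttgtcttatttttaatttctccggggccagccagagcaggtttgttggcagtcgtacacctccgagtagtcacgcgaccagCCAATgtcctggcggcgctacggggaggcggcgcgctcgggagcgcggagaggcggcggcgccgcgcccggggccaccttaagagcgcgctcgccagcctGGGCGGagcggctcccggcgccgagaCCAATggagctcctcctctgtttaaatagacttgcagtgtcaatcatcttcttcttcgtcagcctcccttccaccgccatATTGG
Each of the 4 windows printed for rising genes held at least 1 match to the p53 half-site, at 73 and 51 bases before the start in Cdkn1a, 40 in Gadd45a, 186 in Mdm2 and 75 in Trp53. The window of the second Cdkn1a start (chr17:29093519-29093818) held none, nor did that of Cdkn1b, and the only other match among the 12 windows was in Cdkn2d. Of all 32851 windows of this length, 8.36% held a half-site. The FoxO site was matched in Mdm2 alone among the 9 genes, against 3.65% of all windows, and the E-box in Trp53 and Cdkn2c, against 7.15%. GC boxes were matched in 9 of the 12 windows and in 35.7% of all windows. These matches are letters in a window, and no binding was measured.

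Cdkn1b, the most abundant CDK inhibitor per kb of exon at 3 mo, moved the other way. It lies on chr6:134920401-134925513 (plus strand) and stood at 50.7, 56.9, 54.0 and 47.4 CPM in 3 mo wild-type and at 31.6, 31.2 and 30.1 CPM in 19 mo wild-type mice. In V338Y mice it had 47.5, 54.5, 51.5 and 51.01 CPM at 3 mo and 24.5, 24.5, 31.1 and 27.5 CPM at 19 mo. The ages were separated by a wide gap in both genotypes. On the log2 scale the gene fell by 0.75 ± 0.09 in wild-type, a 1.68-fold decrease (edgeR adjusted p = 5.73e-04), and by 0.91 ± 0.10 in V338Y mice, a 1.88-fold decrease (edgeR adjusted p = 2.20e-04). Both calls held in each fit that left out 1 mouse, and without V338Y mouse 5 at 19 mo the gene fell by 0.91 (edgeR adjusted p = 3.21e-04).

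Cdkn1c, an imprinted gene on chr7:143458339-143461050 (minus strand), was also lower in old mice. It was counted at 13.4, 12.4, 12.9 and 16.7 CPM in 3 mo and 9.44, 12.2 and 7.19 CPM in 19 mo wild-type mice, and at 18.3, 14.3, 15.5 and 14.0 CPM in 3 mo and 10.9, 8.31, 10.03 and 9.44 CPM in 19 mo V338Y mice. The ages did not overlap within a genotype. The decrease passed the test in V338Y mice, where the gene fell by 0.68 ± 0.13 on the log2 scale (edgeR adjusted p = 0.00229), and by 0.66 without mouse 5 at 19 mo (edgeR adjusted p = 0.00441). In wild-type mice the log2 difference was -0.52 ± 0.18 (edgeR adjusted p = 0.0532), and it passed the threshold under 5 of 14 alternatives, among them DESeq2 (adjusted p = 0.0367) and the fit without 19 mo mouse 4 (edgeR adjusted p = 0.0221).

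None of the INK4 genes rose with age. Cdkn2a, on chr4:89274471-89294653 (minus strand), encodes p16 and, in another reading frame, p19Arf, which gene counts cannot separate. Wild-type mice had 4, 1, 0 and 2 counts of it at 3 mo and 0, 1 and 0 counts at 19 mo, and V338Y mice 3, 0, 0 and 2 counts at 3 mo and 1, 0, 0 and 0 counts at 19 mo. It was the only one of the 10 genes too low to be tested. A count of 0 allows up to 3 counts, equal to 0.172 to 0.345 CPM in these libraries, for counting error only, so that a difference between groups was not detectable at this depth. Cdkn2b, its neighbour on chr4:89306299-89311039, stood at 0.709 to 1.99 CPM in 3 mo and 0.257 to 1.201 CPM in 19 mo mice, with 4 to 28 counts per mouse. Its ages overlapped in both genotypes, with log2 differences of -1.03 ± 0.45 in wild-type (edgeR adjusted p = 0.100) and -0.49 ± 0.46 in V338Y mice (edgeR adjusted p = 0.398).

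Cdkn2c (chr4:109660876-109667189) and Cdkn2d (chr9:21288410-21291407), both on the minus strand, are the INK4 genes that differentiated cells are known to express. Cdkn2c lay at 9.33 to 16.9 CPM in 3 mo and 5.12 to 13.04 CPM in 19 mo mice, and did not pass the test in wild-type (log2 difference of -0.53 ± 0.27, edgeR adjusted p = 0.145) or V338Y mice (-0.15 ± 0.20, edgeR adjusted p = 0.542). Cdkn2d was counted at 7.65, 7.44, 6.50 and 7.70 CPM in 3 mo and 5.40, 5.54 and 5.12 CPM in 19 mo wild-type mice, with no overlap. It fell by 0.44 ± 0.13 on the log2 scale there (edgeR adjusted p = 0.0266), a call that was lost with DESeq2 (adjusted p = 0.0623) and without any 1 of 5 mice, which were 1, 2 and 4 at 3 mo and 4 and 5 at 19 mo, when adjusted p in edgeR was 0.0575 to 0.0620. In V338Y mice the levels of 4.86 to 6.56 CPM at 3 mo and 4.41 to 5.65 CPM at 19 mo overlapped, with a log2 difference of -0.24 ± 0.15 (edgeR adjusted p = 0.227).

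Counted over the list, 6 of the 9 tested genes were called with age in wild-type mice, 4 higher and 2 lower, where 36.2% of all 13657 tested genes were called, 18.3% higher and 17.8% lower. In V338Y mice 6 of 9 were called, again 4 higher and 2 lower, where 46.9% of 13868 genes were, 24.4% higher and 22.5% lower. The ages did not overlap for 7 of the 9 genes in wild-type mice and 4 of the 9 in V338Y mice, beside 43.4% and 42.2% of all tested genes. A call with age was thus common among all genes of these libraries. The 9 genes had a median log2 difference of -0.44 for wild-type animals and of -0.15 for V338Y animals, beside 0.02 and 0.07 over all tested genes. The genes called in both genotypes were 5, with Cdkn1a, Gadd45a, Mdm2 and Trp53 higher and Cdkn1b lower at 19 mo, whereas Cdkn2d was called in wild-type mice alone and Cdkn1c in V338Y mice alone. The interaction of age and genotype in a fit of all 15 mice passed for neither Cdkn2d (0.20 ± 0.19, edgeR adjusted p = 0.753) nor Cdkn1c (-0.17 ± 0.23, edgeR adjusted p = 0.834).

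**Figure D2:**
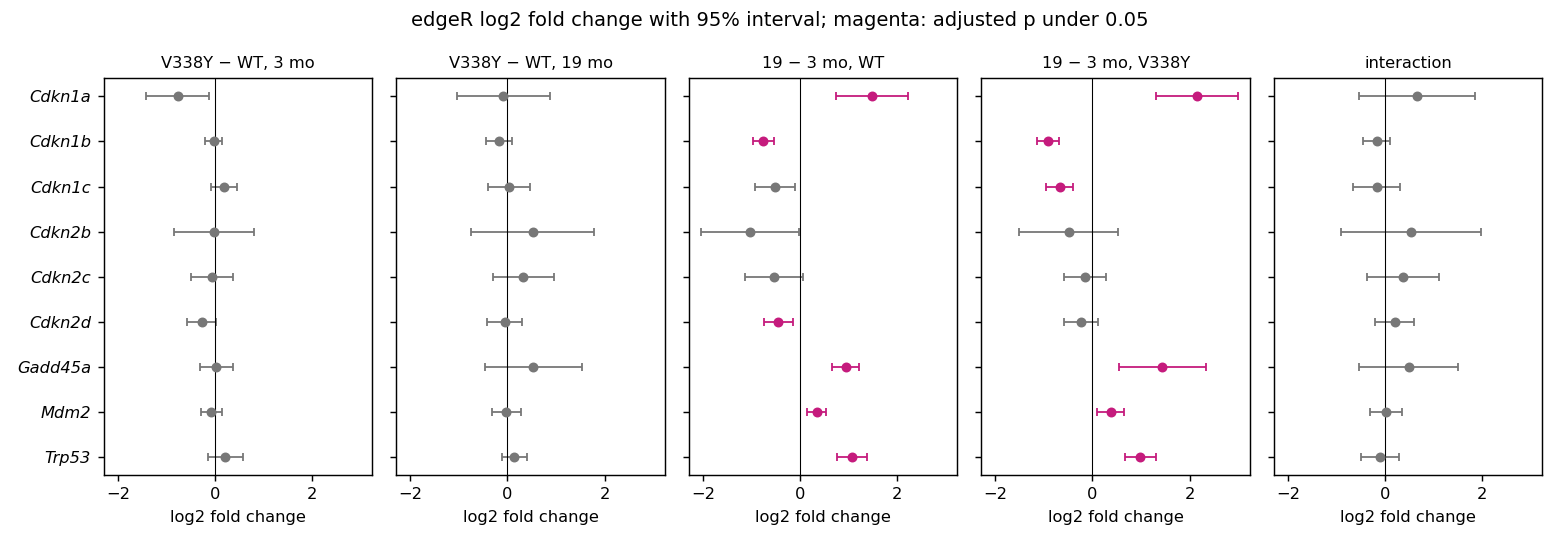
Log2 fold changes of the 9 tested genes in 5 comparisons. Points are edgeR estimates on a log2 axis and whiskers their 95% intervals, with the second group named subtracted from the first, the interaction being the age difference in V338Y minus that in wild-type mice, and magenta marks an adjusted p under 0.05. Called genes appear in the panels of age only, with Cdkn1a at 1.48 and 2.15 and Cdkn1b at -0.75 and -0.91.

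Between the genotypes none of the genes was called at either age. At 19 mo 0 of 9 passed (edgeR), where 0.0434% of 13833 genes were called, and 0 of 9 had an unadjusted p under 0.05, beside 8.92% of all genes. DESeq2 also called 0 of them. A fit that blocked on the mouse number, without V338Y mouse 3, called 0 of 8 tested. Trp53 was the one gene whose 19 mo groups did not overlap, as the 4 V338Y mice at 9.18 to 9.71 CPM lay above the 3 wild-type mice at 8.20 to 9.02 CPM. Its log2 difference was only 0.14 ± 0.11 (95% interval -0.11 to 0.40, edgeR adjusted p = 0.718), and 9.78% of all tested genes had groups that did not overlap. Intervals were narrow for Cdkn1b (-0.45 to 0.10), Cdkn2d (-0.42 to 0.31) and Mdm2 (-0.33 to 0.27). Wider ones, which reached beyond a 1.5-fold difference, were those of Cdkn1a (-1.04 to 0.87), Gadd45a (-0.47 to 1.52), Cdkn2b (-0.75 to 1.79) and Cdkn2c (-0.29 to 0.95).

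At 3 mo 0 of 9 genes passed with edgeR or with DESeq2, where edgeR called 0.075% of 13333 genes. Cdkn1a was the only one with an unadjusted p under 0.05, as had 9.7% of all genes. It averaged 10.6 ± 4.29 CPM (SD, n = 4) in wild-type and 6.21 ± 1.69 CPM (SD, n = 4) in V338Y mice, a log2 difference of -0.76 ± 0.29 (edgeR adjusted p = 0.464), and wild-type mouse 4 at 5.16 CPM lay within the V338Y range. Cdkn2d followed at -0.28 ± 0.13 (edgeR adjusted p = 0.534), and the other 7 genes had log2 differences between -0.07 and 0.22.

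In the fit of all 15 mice the rise of Cdkn1a with age was 1.58 times as large in V338Y as in wild-type mice and that of Gadd45a 1.40 times, but neither difference passed the test of the interaction, which gave 0.66 ± 0.56 for Cdkn1a (edgeR adjusted p = 0.728) and 0.48 ± 0.48 for Gadd45a (edgeR adjusted p = 0.766). For all 9 genes the interaction was called 0 times, also with DESeq2, and 0 of 9 had an unadjusted p under 0.05, beside 9.59% of the 14128 genes tested. Of all these genes 0 were called by edgeR (0%).

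The order of the 10 genes changed with age. Per kb of exon, Cdkn1b had the highest mean in 3 mo mice, with 11.5 ± 0.902 CPM per kb in wild-type (SD, n = 4), followed by Gadd45a at 9.16 ± 1.07, Mdm2 at 8.29 ± 0.645 and Cdkn1c at 6.78 ± 0.949, and the ranges of neighbours among these 4 overlapped. Cdkn2d at 4.65, Cdkn2c at 4.35 and Cdkn1a at 2.99 CPM per kb came next, with a gap below Cdkn1c and another above Trp53 at 1.01 CPM per kb. Cdkn2b at 0.866 and Cdkn2a at 0.132 CPM per kb were lowest in this group, as they were in the other 3 groups. At 19 mo Gadd45a had the highest mean, with 17.6 ± 2.19 CPM per kb in wild-type (SD, n = 3), above the range of Mdm2 at 10.5 ± 0.216. Cdkn1a followed at 8.43 ± 3.15 and then Cdkn1b at 6.80 ± 0.175 CPM per kb, although their ranges overlapped. In 19 mo V338Y mice the first 5 genes stood in the same order, with Gadd45a at 24.8 ± 14.1 CPM per kb (SD, n = 4) overlapping Mdm2.

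**Figure D3:**
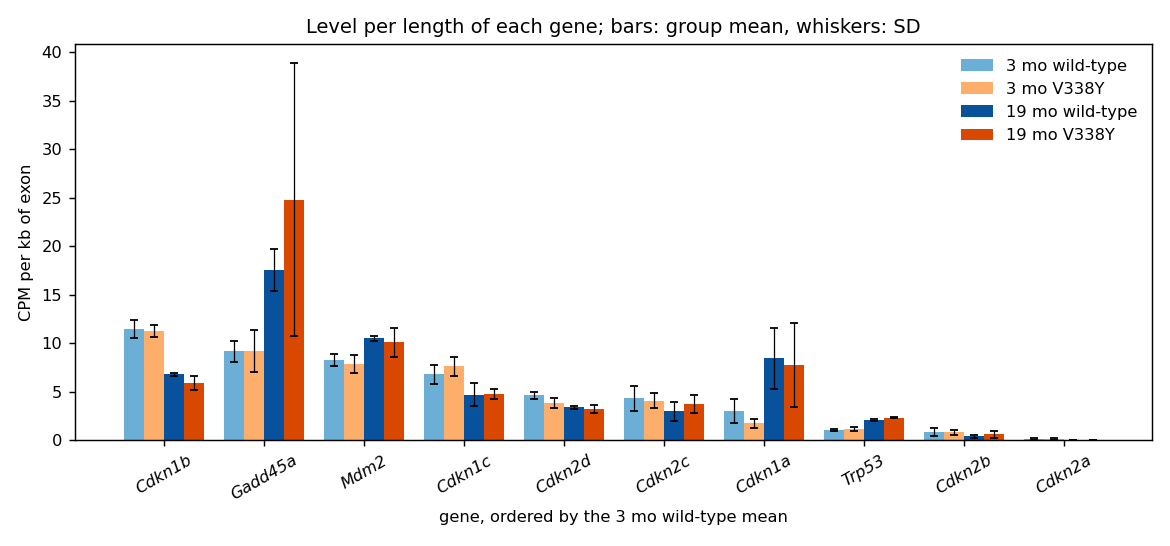
Level of each gene per kb of exon in the 4 groups. Genes are on the x axis in the order of their 3 mo wild-type means, bars on the y axis from 0 are group means of CPM per kb and whiskers the SD over 3 or 4 mice. Cdkn1b leads at 3 mo with 11.5 CPM per kb in wild-type mice, and Gadd45a at 19 mo with 17.6 and 24.8 CPM per kb.

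Among the old mice Cdkn1a differed from mouse to mouse in both genotypes. In wild-type mice it was lowest in mouse 2, intermediate in mouse 4 and highest in mouse 5, and in V338Y mice mouse 3 was lowest, followed by 2, 4 and 5. Pdk4, a kinase that shuts off glucose oxidation in fasting, stood at 63.0, 1087 and 1958 CPM in wild-type mice 2, 4 and 5, and at 93.2, 54.5, 1155 and 2601 CPM in V338Y mice 2 to 5. Pdk4 thus split the old mice into low and high ones in the order of Cdkn1a. Foxo1, a transcription factor of fasting and atrophy, had 22.4, 35.7 and 64.2 CPM in wild-type and 21.5, 24.3, 42.2 and 54.5 CPM in V338Y mice of the same numbers. In V338Y mice Foxo1 was lowest in mouse 2, whereas Cdkn1a was lowest in mouse 3. Gadd45a had the order of Cdkn1a in V338Y mice only, since wild-type mouse 2 was its highest. Pdk4, Foxo1 and the genes plotted with them were chosen for this description after their values were seen.

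**Figure D4:**
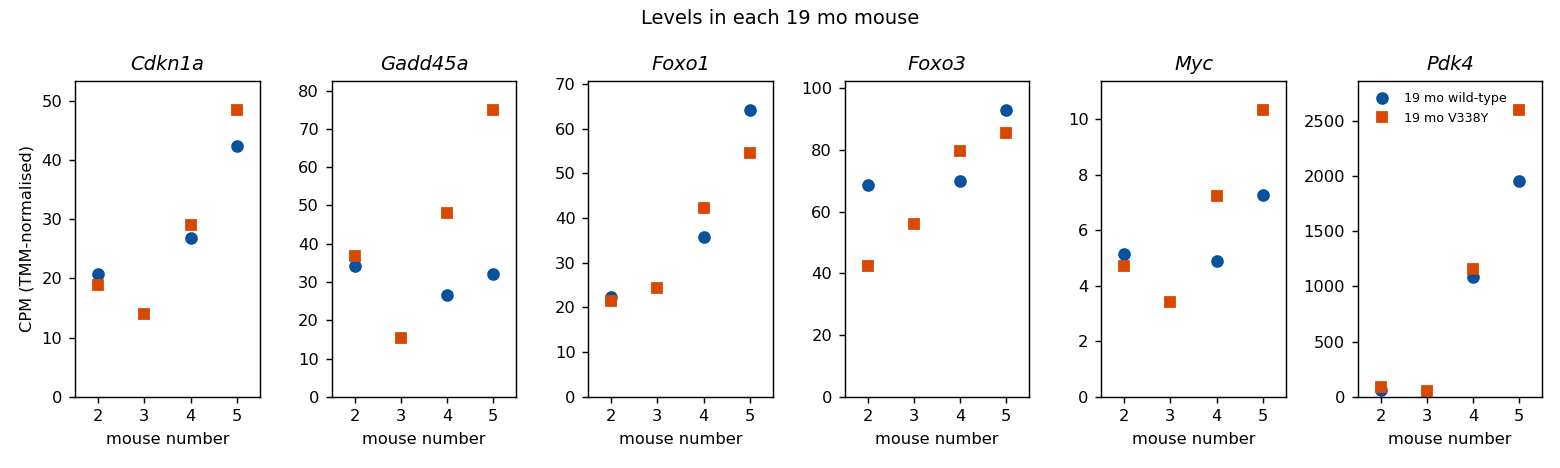
Levels of 6 genes in the 7 mice of 19 mo. The x axis is the mouse number in the labels and the y axis CPM from 0, with circles for wild-type and squares for V338Y mice. Cdkn1a, Foxo1 and Pdk4 are low in mice 2 and 3 and highest in mouse 5 of both genotypes, with Pdk4 at 54.5 to 93.2 CPM in mice 2 and 3 and at 1958 and 2601 CPM in mice 5.

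Over all 15 mice, with group means removed, levels of the genes on the log2 scale were compared as a description. Among the members Cdkn1a and Gadd45a had the highest correlation (Pearson r = 0.61), followed by Cdkn1c and Cdkn2b (0.57) and by Cdkn1a and Cdkn1b (0.53), whereas Cdkn1a and Cdkn2b were opposed (-0.82), the latter at 4 to 28 counts. The points share libraries and their depth. Of all tested genes those most like Cdkn1a were Ccar1 (0.95), Myc (0.90) and Gm15725 (0.89). Numa1 (0.93), Tchp (0.91) and Golgb1 (0.91) were most like Cdkn1b, Lpin2, Fam160b1 and Tmem250-ps (0.87 each) most like Gadd45a, and Ahcy (0.89), Napsa (0.88) and Slc6a9 (0.85) most like Mdm2.

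The other genes of the p53 pathway did not move in 1 direction. Of 26 p53 target genes other than the 10 described, 23 were tested with age in wild-type mice, where 6 rose and 7 fell, and 24 in V338Y mice, where 5 rose and 5 fell. Of all tested genes 18.3% rose and 17.8% fell in wild-type mice, and 24.4% and 22.5% in V338Y mice. In wild-type mice, fits that left out 1 mouse called 4 to 5 target genes higher and 3 to 7 lower. The targets' medians were 0.05 and 0.18 on the log2 scale. Zmat3, an RNA-binding protein, rose in both, from 4.66 to 14.9 CPM in wild-type (1.68 ± 0.16, edgeR adjusted p = 1.98e-04) and from 4.95 to 17.5 CPM in V338Y mice (1.82 ± 0.16, edgeR adjusted p = 7.10e-05). Plk2, a polo-like kinase gene, also rose in both genotypes. Eda2r, a receptor of the TNF family, rose in wild-type mice (1.22 ± 0.21, edgeR adjusted p = 0.00282) and not detectably in V338Y mice (0.24 ± 0.33, edgeR adjusted p = 0.567), with an interaction of -1.0001 ± 0.44 (edgeR adjusted p = 0.496).

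The decreases included the target gene with the most counts. Ccng1, the cyclin G1 gene, averaged 1230 CPM in 3 mo and 881 CPM in 19 mo wild-type mice (-0.48 ± 0.14, edgeR adjusted p = 0.0268), and 1343 and 686 CPM in V338Y mice (-0.96 ± 0.14, edgeR adjusted p = 7.20e-04). Tigar, a regulator of glycolysis, the exonuclease gene Aen and Ei24 fell in both genotypes as well. Without V338Y mouse 5 at 19 mo, 6 target genes rose and 6 fell in V338Y mice.

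Of the regulators of p53, 3 of 11 tested rose in wild-type mice and 4 of 12 in V338Y mice, or 5 without mouse 5 at 19 mo, and 0 fell by the edgeR test. Of all tested genes 18.3% and 24.4% rose. Ep300, an acetyltransferase and coactivator of p53, rose from 29.6 to 71.6 CPM in wild-type (1.28 ± 0.14, edgeR adjusted p = 3.37e-04) and from 26.5 to 69.2 CPM in V338Y mice (1.40 ± 0.12, edgeR adjusted p = 5.88e-05). The kinase gene Hipk2 and the p53 homologue Trp63 rose in both. Mdm4, the partner of Mdm2 in restraining p53, rose in V338Y mice (0.76 ± 0.14, edgeR adjusted p = 0.00192) and had a log2 difference of 0.32 ± 0.17 in wild-type mice (edgeR adjusted p = 0.164), with no called interaction (edgeR adjusted p = 0.566).

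**Figure D5:**
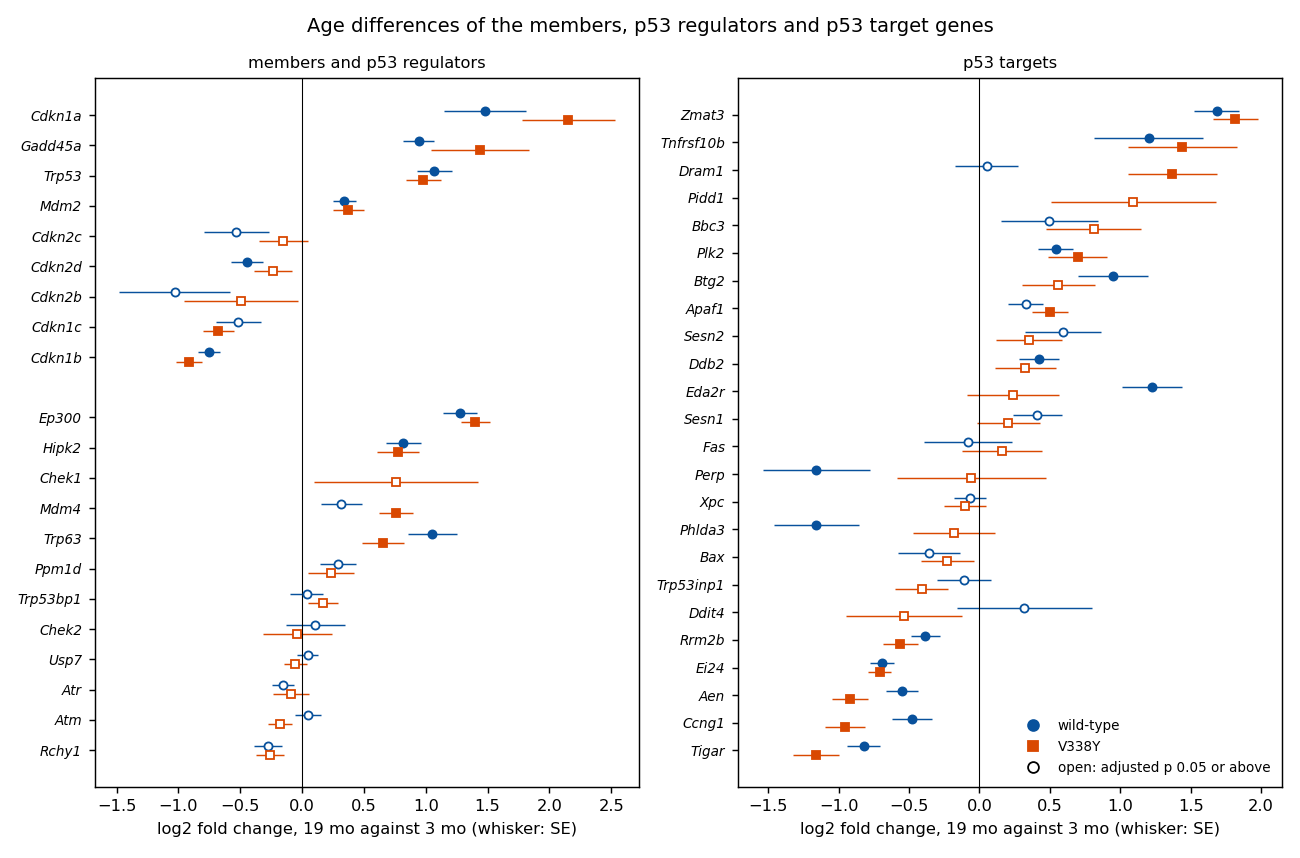
Age differences of the described genes, p53 regulators and p53 target genes. The x axis is the log2 fold change of 19 mo against 3 mo mice with whiskers of 1 SE, circles are wild-type and squares V338Y mice, and filled symbols have an adjusted p under 0.05. Target genes fall on both sides of 0, from Zmat3 at 1.68 and 1.82 to Tigar at -0.82 and -1.16.

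The paralogs of Gadd45a did not rise with it. Gadd45g fell from 25.2 to 11.3 CPM in wild-type (-1.15 ± 0.27, edgeR adjusted p = 0.0101) and from 39.9 to 11.2 CPM in V338Y mice (-1.81 ± 0.25, edgeR adjusted p = 4.49e-04). Gadd45b had log2 differences of -0.27 ± 0.25 in wild-type (edgeR adjusted p = 0.419) and -0.73 ± 0.28 in V338Y mice (edgeR adjusted p = 0.0595).

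The kinases and cyclins that the inhibitors bind were mostly not called with age. Of 12 such genes 7 were tested in each genotype, and Ccne2, cyclin E2, fell in both, by 0.80 ± 0.19 in wild-type (edgeR adjusted p = 0.0119) and by 0.96 ± 0.17 in V338Y mice (edgeR adjusted p = 0.00157). Cyclin D2 (Ccnd2) rose in V338Y mice from 13.8 to 26.3 CPM (0.94 ± 0.18, edgeR adjusted p = 0.00229), and stood at 17.2 CPM at both ages in wild-type mice. Its interaction was 0.93 ± 0.26 (edgeR adjusted p = 0.383). Cdk4 stood at 15.3 and 15.7 CPM in wild-type mice of 3 and 19 mo while V338Y mice had 18.2 and 15.2 CPM at these ages, and neither it nor Ccnd1 was called. Rb1, the retinoblastoma protein gene that these kinases act on, rose from 27.4 to 41.9 CPM in wild-type (0.61 ± 0.14, edgeR adjusted p = 0.00802) and from 24.1 to 47.1 CPM in V338Y mice (0.98 ± 0.15, edgeR adjusted p = 7.20e-04). Of the RB and E2F genes 2 of 10 tested rose and 2 fell in wild-type mice, and 2 of 12 rose and 3 fell in V338Y mice. E2f6 and Tfdp1 fell in both. Without V338Y mouse 5 at 19 mo, 1 rose and 3 fell. For both lists, the shares over all tested genes were 18.3% higher and 17.8% lower in wild-type mice, and 24.4% and 22.5% in V338Y mice.

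Genes of proliferating cells were at low levels, and those that rose in V338Y mice rested in part on 1 mouse. In wild-type mice 1 of 12 tested genes rose, Mki67, from 0.829 to 2.08 CPM (1.35 ± 0.32, edgeR adjusted p = 0.0107). In V338Y mice 4 of 12 rose, Mki67, Tyms, Mcm6 and Top2a, and with mouse 5 left out 2 of them did, Mki67 and Tyms. The shares of all tested genes that rose were 18.3% in wild-type and 24.4% in V338Y mice. Top2a was named after its values were seen. Mki67 was at 0.806 to 3.85 CPM in 3 mo V338Y mice and at 4.30, 6.10, 3.41 and 83.7 CPM in 19 mo mice 2 to 5. Its log2 rise of 3.74 ± 1.13 (edgeR adjusted p = 0.0219) was 1.36 without mouse 5 (edgeR adjusted p = 0.0360). The neutrophil markers S100a8, S100a9, Ltf, Camp and Ngp were highest in this mouse as well, and their part in these values was not tested.

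Among known regulators of the inhibitor genes, 4 of 12 rose with age in wild-type and 5 rose and 1 fell in V338Y mice. Over all tested genes 18.3% rose in wild-type mice, and 24.4% rose and 22.5% fell in V338Y mice. Foxo1 rose from 15.8 to 40.8 CPM in wild-type (1.37 ± 0.36, edgeR adjusted p = 0.0165) and from 12.8 to 35.6 CPM in V338Y mice (1.497 ± 0.32, edgeR adjusted p = 0.00411). Foxo3 and Myc rose in both genotypes. Myc, known as a repressor of Cdkn1a, rose from 1.96 to 5.77 CPM in wild-type mice (1.53 ± 0.25, edgeR adjusted p = 0.00197). Bmi1, the Polycomb repressor of the Cdkn2a locus, fell in V338Y mice by 0.40 ± 0.13 (edgeR adjusted p = 0.0301), and with mouse 5 at 19 mo left out none of the 12 fell.

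Some cell type markers moved with age too. Over all tested genes 18.3% rose and 17.8% fell in wild-type mice, and 24.4% and 22.5% in V338Y mice. Of 7 macrophage markers 4 rose in each genotype, or 6 in V338Y mice without mouse 5, and their sum was 137 to 202 CPM in 3 mo and 192 to 295 CPM in 19 mo mice. The 4 endothelial markers summed to 122 to 164 CPM at 3 mo and 181 to 312 CPM at 19 mo, with 2 of them higher in wild-type and 3 in V338Y mice, or 2 without mouse 5. Muscle fibre markers fell for 3 of 10 genes in wild-type and 4 of 10 in V338Y mice, or 5 without mouse 5, and their sums were 265425 to 324102 CPM at 3 mo and 168050 to 286858 CPM at 19 mo. Neutrophil markers were near 0 at 3 mo, where Ltf and Ngp had 0 counts in every mouse and the 5 markers summed to at most 1.72 CPM, and they summed to 2.30 to 544 CPM in 19 mo V338Y mice. Satellite cell markers, those of the muscle stem cells, summed to 16.5 to 20.5 CPM at 3 mo and 13.2 to 21.6 CPM at 19 mo. Of 5 fibroblast markers 1 rose and 2 fell in wild-type mice. In V338Y mice 0 rose and 2 fell, or 1 and 1 without mouse 5. The 5 adipocyte markers had median log2 differences of -1.01 in wild-type and 0.93 in V338Y mice. Of these, 1 fell in wild-type and 1 rose in V338Y mice, and the interaction was called for 0 of them by edgeR. Of 5 lymphocyte markers 0 were tested in wild-type mice, and 3 rose in V338Y mice, or 2 without mouse 5. The part of these cell types in the age differences of the 10 genes was not tested.

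Between the genotypes, none of the genes in the lists above was called at 3 mo, at 19 mo or in the interaction by edgeR. With the mouse number as a block, edgeR called 2 list genes at 19 mo, both higher in V338Y mice. This fit left out V338Y mouse 3, whose number no 19 mo wild-type mouse had. The genes were Mcm6 (1.83, edgeR adjusted p = 0.0387) and the neutrophil gene Ltf (7.04, edgeR adjusted p = 0.00786). At 3 mo DESeq2 called the myoglobin gene Mb (0.58, adjusted p = 0.0109) and the kinase gene Sgk1 (0.56, adjusted p = 0.00944), both higher in V338Y mice, and edgeR without wild-type mouse 1 called Pcna, which was lower by a log2 difference of -0.69 (adjusted p = 0.0377). These genes were named after their values were seen.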

How the data were processed

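The authors sequenced stranded mRNA libraries from the quadriceps of 15 mice, and reads were assigned to Ensembl genes with RSEM. The processing notes name STAR 2.4.2a and bcl2fastq 1.8.4. The deposited values were expected counts per gene, already whole numbers, of 39179 genes. Genome positions and exon lengths came from the GENCODE annotation of GRCm38.

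A gene was tested if 50% or more of the mice in either compared group had 10 or more counts, with edgeR 4.0.16 (R 4.3.3, limma 3.58.1; quasi-likelihood test, TMM normalisation, Benjamini-Hochberg adjustment over all tested genes, threshold 0.05), as the study's filter and tool were. The main fits held the mice of the 2 compared groups, and the interaction all 15. Fits were tested on simulated data. P-values measure the spread between mice, and totals of 8250653 to 18968132 counts set the depth. Intervals are 95%, and floors of 3 counts cover counting error only. Correlations used log2(CPM + 0.5).

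The 10 genes and the lists were chosen with earlier results of these data known. The rule for naming was up to 3 called genes per list, direction and comparison with the smallest p, besides 15 fixed genes and 2 label checks. Some genes under this rule are given without values, among them Ccnd1, Mrps5 and the label check Eif3j1. Between the genotypes at 19 mo same-numbered mice had r of 0.132 to 0.400 over 3 pairs. The 9 differently numbered pairs there had r of -0.407 to 0.467, a range that holds these values. Pairing by number was therefore not established, and the block is given as an alternative only. In comparisons of 2 groups the block held only mice whose number occurred in both groups. Alternatives were DESeq2 1.42.0, RLE size factors, other filters, a fit of all 15 mice, removal of the 10 most counted genes, the block, and each mouse left out. Counts of list genes without V338Y mouse 5 at 19 mo were added after seeing the data.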

Additional observations from a re-analysis of the deposited data

Results flagged for a closer look

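In 30 groups of 4 mice that were checked over the 10 genes, 3 had a mouse far from the other three by Dixon's criterion, and chance gives about 1 in 20. Cdkn1a was lowest in 3 mo V338Y mouse 4, at 3.68 CPM. Cdkn2c was highest in 3 mo wild-type mouse 1, at 16.9 CPM. Cdkn2a was highest in 19 mo V338Y mouse 2, at 0.100 CPM, which was a single count beside 0 in the other mice of the group.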

How the results depend on the processing

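Of the counts of called members, the 1 that changed by over 1.5 times was that of age in wild-type mice. It was 3 genes instead of 6 with the replicate number as a block. This fit held only mice 2 and 4 of each age, whose numbers occurred in both groups. The calls of Cdkn1a (edgeR adjusted p = 0.0747), Mdm2 (0.0720) and Cdkn2d (0.177) were lost. The numbers did not pair the mice (r = 0.0048 to 0.0158 over 2 pairs). Whether the block or the smaller set of mice changed the calls was not tested. With each mouse left out in turn the counts were 5 to 6 for age in either genotype and 0 to 0 for the genotypes and the interaction. In V338Y mice the block held mice 2 to 4 of each age, without mouse 1 at 3 mo and mouse 5 at 19 mo. It also ended the call of Gadd45a with age (log2 rise of 1.01, edgeR adjusted p = 0.0715), with r of -0.136 to 0.0148 over 3 pairs. Between the genotypes at 19 mo the block, fitted without V338Y mouse 3, called 0 members of 8 tested. It changed no other call of a member. Among list genes the block called Sgk1 (0.55, edgeR adjusted p = 0.0412) and Plin1 (-1.19, 0.0346) between the genotypes at 3 mo, and Ccnd2 (1.04, 0.0414) and Plin1 (2.51, 0.0414) in the interaction. Over the single genes, 686 alternative values kept their direction where called and their side of the threshold, 17 lost the call and 5 gained it. Counts over all genes moved by over 1.5 times between the genotypes at 19 mo (6, against 62 with DESeq2, 14 with no filter, 120 with the block and 2 to 7 with a mouse left out), at 3 mo (10, against 66 with DESeq2, 33 with no filter and 3 to 14), for age in wild-type mice (4940, against 1981 with the block) and for the interaction (0, against 26 with DESeq2, 5 with no filter and 28 with the block). Without a filter the median age difference of all genes in V338Y mice was 0.25 on the log2 scale, against 0.07. Depth limited Cdkn2a and Cdkn2b most.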

Other observations

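Several genes known to be induced in denervated muscle rose with age. Of 8 such genes 7 were tested in wild-type and 8 in V338Y mice, and 5 rose in each genotype with none lower, and V338Y mice also had 5 without mouse 5 at 19 mo. Of all tested genes 18.3% rose in wild-type and 24.4% in V338Y mice. Runx1, a transcription factor, rose from 3.36 to 12.8 CPM in wild-type (1.93 ± 0.21, edgeR adjusted p = 3.33e-04) and from 3.77 to 22.5 CPM in V338Y mice (2.57 ± 0.37, edgeR adjusted p = 6.60e-04). Ncam1, a cell adhesion molecule, rose from 3.12 to 7.03 CPM and from 3.84 to 11.6 CPM. The deacetylase gene Hdac4 rose from 27.96 to 61.6 CPM and from 33.7 to 61.01 CPM. Without mouse 5 at 19 mo, Myog rose by 1.11 on the log2 scale in V338Y mice (edgeR adjusted p = 0.0196). In that fit Chrna1 (0.38, edgeR adjusted p = 0.348) and Chrnd (0.38, edgeR adjusted p = 0.414) were not called.

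Of 21 genes of the senescence-associated secretory phenotype and nuclear markers of senescence, 11 were tested with age. In wild-type mice 5 rose, and in V338Y mice 4 rose and 1 fell, or 4 and 2 without mouse 5 at 19 mo. Over all tested genes 18.3% rose in wild-type mice, and 24.4% rose and 22.5% fell in V338Y mice. Igfbp3, which binds insulin-like growth factors, rose from 12.96 to 40.5 CPM in wild-type (1.64 ± 0.14, edgeR adjusted p = 1.23e-04) and from 12.2 to 36.8 CPM in V338Y mice (1.63 ± 0.32, edgeR adjusted p = 0.00314). The chemokine gene Ccl8, the protease gene Mmp3 and Tgfb1 rose in both genotypes. Lmnb1, the lamin whose loss is a known mark of senescent cells, had log2 differences of 0.35 ± 0.24 in wild-type (edgeR adjusted p = 0.273) and 0.25 ± 0.19 in V338Y mice (edgeR adjusted p = 0.295). As in the other comparisons of age, sex-linked transcripts differed between the same mice, and the 2 cannot be told apart.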
